A study of Schizosaccharomyces pombe with 6 samples.

Results

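The comparison described here set fission yeast (Schizosaccharomyces pombe) cells that carry the fkh2-S2A allele against wild type. It rested on the 2 arrays titled fkh2-S2A and the 2 titled wild type, of 6 arrays in all. It covered every probe set that the platform annotation ties to an S. pombe gene symbol, 2936 of the 10928 probe sets in the deposited table. Of these, 2917 matched 1 gene and 19 matched several, for 2899 single genes. The rule for arrays and probe sets used labels and annotation, and no measured value.

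The labels give both groups the strain name CG 209 and the genotypes wild type and fkh2-S2A mutant. Both were grown in rich medium (YEL) to mid-log phase, and total RNA was labelled with biotin for an Affymetrix yeast array. The labels do not spell out the S2A change, nor how the allele was introduced, nor whether a group's 2 arrays stem from separate cultures. P-values therefore rest on array-to-array spread, which may be technical. The remaining 2 arrays came from fkh2delta cells of strain CG 116, which lack the gene. They entered the model for its estimate of the spread between arrays of a group.

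Fkh2 is a forkhead transcription factor. In fission yeast it is known, together with the forkhead protein Sep1 and the MADS-box protein Mbx1, for the wave of transcription that accompanies mitosis and septation, and it is itself phosphorylated in the course of the cell cycle. Genes of that wave encode contractile-ring and septum proteins, mitotic kinases and kinesins.

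All values are log2 signals as deposited, and a change is the mean of the fkh2-S2A arrays minus the mean of the wild-type arrays, ± its standard error (SE) from limma. A probe set was called at a Benjamini-Hochberg adjusted p below 0.05. The medians of the arrays were 10.10 and 10.08 in wild type, 10.14 and 10.21 in fkh2-S2A and 10.19 and 10.23 in fkh2delta. The background level, the 95th percentile of listed probe sets with no S. pombe gene, lay between 5.17 and 5.35 on the 6 arrays, and 2883 of the 2936 probe sets had a mean above it. The mean 3′ minus 5′ difference of the S. pombe mRNA control probe sets was 1.27 on each wild-type array and was 1.35 and 1.24 in fkh2-S2A. The typical distance between the 2 arrays of a group was also alike, with a median absolute difference of 0.123 in wild type and 0.128 in fkh2-S2A. The fkh2delta arrays lay closer together, at 0.0906, and they also enter the estimate of the spread.

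The 2 wild-type arrays did not stand equally far from fkh2-S2A. Wild type replicate 1 was above replicate 2 in 85.5% of the probe sets called higher in fkh2-S2A and in 11.4% of those called lower, against 54.0% of all probe sets. Replicate 1 thus lay toward fkh2-S2A for most called probe sets. The counts changed accordingly when an array was left out: 247 probe sets were higher and 40 lower without wild type replicate 2, and 656 and 265 without replicate 1. Leaving out fkh2-S2A replicate 1 gave 562 and 160, and leaving out replicate 2 gave 458 and 222. The gene groups below are therefore given with their counts without wild type replicate 2 as well, to be read against 247 higher and 40 lower of all 2936.

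The fkh2 transcript was measured first. Its signal was 7.53 and 7.39 in the wild-type samples, and fkh2-S2A gave 7.47 and 7.76. The groups overlapped, and the change of 0.16 ± 0.14 did not pass the test (adjusted p = 0.407, limma). In the fkh2delta arrays the same probe set read 4.34 and 4.05, below background. The signal of fkh2 thus did not separate fkh2-S2A from wild type, and it offers no check of which of these arrays carry the allele. Which stretch of fkh2 the probes match is not known here.

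Between fkh2-S2A and wild type, 978 probe sets passed the test, 33.3% of those tested. Of them 689 were higher in fkh2-S2A, 23.5% of those tested, and 289 were lower, or 9.84%. With the model fitted to the 4 arrays of these groups alone, 596 were higher and 224 lower. The arrays of the groups did not overlap for 1971 probe sets, 67.1%. Most called changes were small: 36 probe sets, 1.23%, had a fitted rise of at least 2-fold and 6, 0.204%, a fitted fall of that size. The 36 include top3, whose wild-type arrays were below background and for which only a bound is given below. The median change over all probe sets was 0.04.

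The split between higher and lower calls depended on the scaling of the arrays. After each array was centred on its median, the median change was -0.04, and 560 probe sets were higher and 498 lower. Trimmed-mean centring gave 539 and 513, and quantile normalization 442 and 422. Among the gene lists described below, respiratory chain genes went with median centring from 10 to 27 lower of 59, with a median of -0.27, and membrane traffic genes from 13 to 26 of 142. A list of genes is accordingly read below against all probe sets under one and the same scaling. Calls also varied with signal: 33.0% of the dimmest quintile of probe sets were higher, against 5.96% of the brightest quintile.

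The change rose with gene length. Here length is the span of the gene in the RefSeq annotation of assembly ASM294v3, introns and annotated UTRs included, so it says nothing on where the probes lie. Each array was set against the mean of all 6, and its difference was regressed on log2 length. For wild type the slopes were -0.0336 and -0.00946 log2 units per doubling of length, and fkh2-S2A had 0.0702 and 0.107. From the shortest to the longest quintile of genes the median change was -0.07, 0.06, 0.07, 0.12 and 0.18. Higher calls made up 4.45% of the shortest quintile and 36.5% of the longest, while lower calls stayed between 9.26% and 10.6% in every quintile. Of the probe sets at least 2-fold higher, 23 were in the longest quintile and 0 in the shortest, and the median length of the 34 that match a single gene was 3564 bases against 1876 bases for all. The 3′ minus 5′ differences of the controls, given above, overlapped between the groups, and their part in the trend was not tested.

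**Figure D1:**
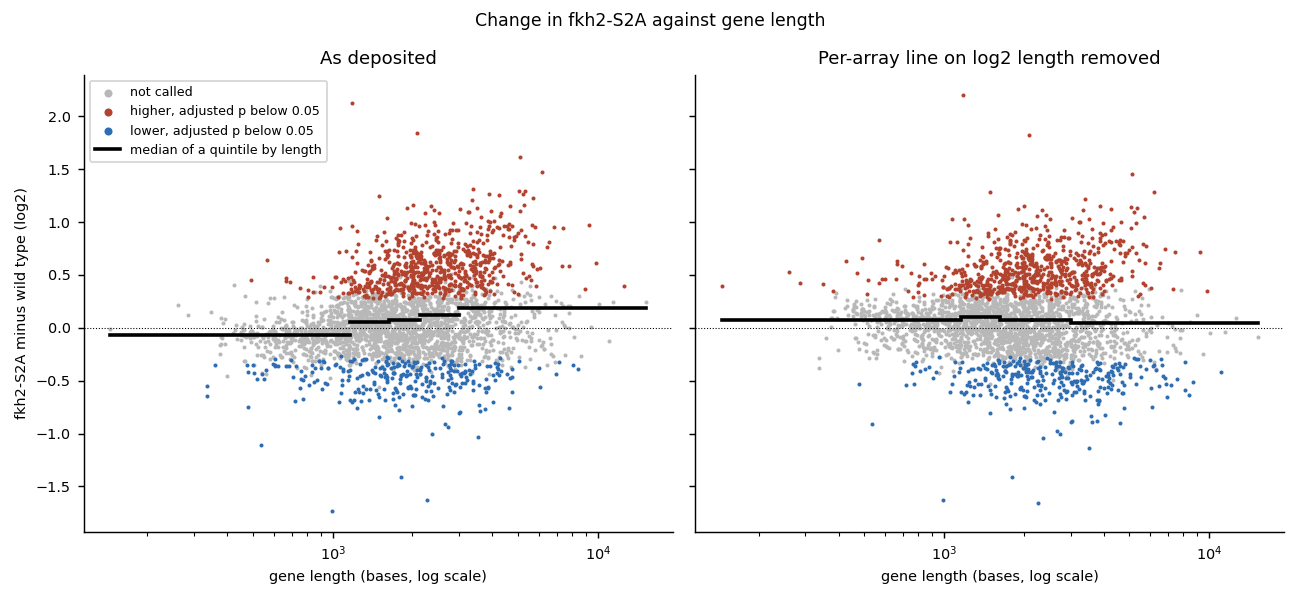
Each point is a probe set with a single gene, by gene length in bases (log scale) and by its fkh2-S2A minus wild type change (log2), as deposited on the left and with a per-array line on log2 length removed on the right. Red and blue points passed the test as higher or lower, and black bars are medians of quintiles by length, which climb from -0.07 to 0.18 on the left and lie between 0.04 and 0.11 on the right.

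A second fit therefore used values from which each array's line on log2 gene length had been removed. It called 1010 of 2917 probe sets, 34.6%, with 697 higher (23.9%) and 313 lower (10.7%). Of 685 higher calls with a length, 627 stood in both fits, as did 239 of 289 lower calls, and 0 probe sets were called in opposite directions. The number at least 2-fold higher went from 36 to 27, of which 25 were shared, and the number at least 2-fold lower stayed at 6, of which 5 were shared. With median centring after the removal, 16 were at least 2-fold higher and 7 lower. The changes of single genes with the line removed are called length-removed below.

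The single highest rise was aes1. Its signal was 8.27 and 8.19 in wild type compared with 10.32 and 10.39 in fkh2-S2A, far apart in relation to the spread within either group. It rose by 2.13 ± 0.09, or 4.37-fold (adjusted p = 1.49e-05, limma), and by 2.20 length-removed. The gene is 1179 bases long, so it stood against the trend in which long genes rose. In fkh2delta it read 7.27 and 7.17, below both other groups.

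The next was str3, which encodes a transporter of iron bound to siderophores. Its signal was 5.95 and 6.49 in wild type, against 8.58 and 7.54 in fkh2-S2A. The groups did not overlap, but the fkh2-S2A arrays differed from each other by about as much as the nearer of them differed from wild type. The change was 1.84 ± 0.30, 3.59-fold (adjusted p = 0.00318, limma).

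Topoisomerase II relieves the twisting of DNA in replication and lets sister chromatids come apart, and its gene top2 came next. It read 7.58 and 7.36 in wild type compared with 9.07 and 9.11 in fkh2-S2A. Both fkh2-S2A arrays were more than 1 log2 unit above both wild-type arrays. The change was 1.62 ± 0.12, 3.07-fold, and 1.46 length-removed (adjusted p = 0.000387, limma).

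**Figure D2:**
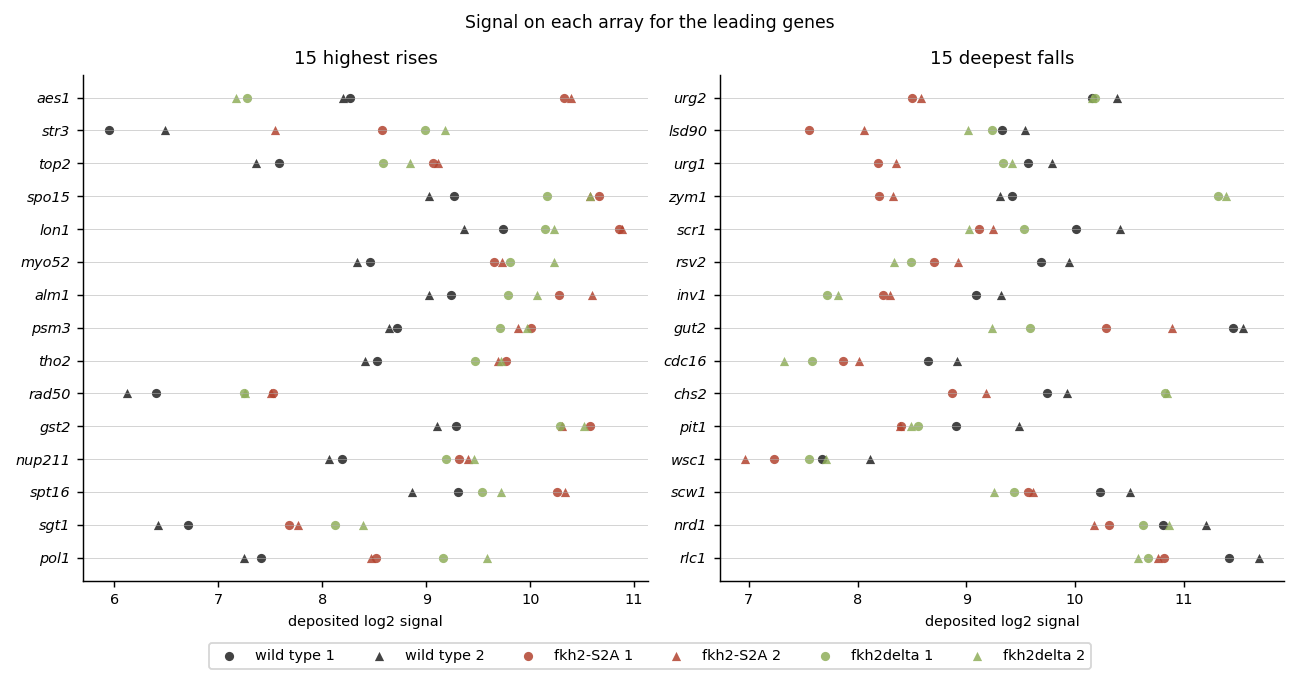
Deposited log2 signal (x axis) on each of the 6 arrays for the 15 highest rises and 15 deepest falls in fkh2-S2A, 1 gene per row, with wild type in black, fkh2-S2A in red and fkh2delta in green; circles are replicate 1 and triangles replicate 2. Red and black points do not overlap in any row, since non-overlap was a condition for showing a gene, and str3 shows the widest spread within fkh2-S2A (8.58 and 7.54).

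Genes for the architecture of chromosomes had the highest share of rises among the 49 lists as deposited. These are the cohesin, condensin and Smc5-Smc6 complexes and their loaders, ring-shaped machines that hold, fold and repair DNA. The list also holds rad50, mre11, nbs1 and ctp1, which serve the processing of DNA breaks. Of 28 measured genes 17 rose, 60.7%, and 0 fell, against 23.5% and 9.84% of all probe sets. Their median change was 0.54, and 0.44 length-removed against 0.08 for all. With median centring 16 rose and 1 fell. With the length trend removed 16 rose, and without wild type replicate 2, when 247 of all 2936 probe sets were higher, 13 rose.

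The cohesin subunit gene psm3 read 8.72 and 8.64 in wild type, against 10.01 and 9.88 in fkh2-S2A. It rose by 1.27 ± 0.11, 2.41-fold (adjusted p = 0.000743, limma). For rad50, an SMC-like subunit of the complex that processes DNA breaks, the signals were 6.40 and 6.12 against 7.52 and 7.51, a change of 1.26 ± 0.11. In both genes the groups lay far apart. The arrays of a group lay close together in psm3, while the wild-type arrays of rad50 were further from each other.

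The condensin subunit gene cut3 rose by 1.05 ± 0.17 (adjusted p = 0.00297, limma). The genes smc5 and smc6, whose products pair in a complex for DNA repair, changed by 1.04 ± 0.13 and 0.83 ± 0.16, and the smc6 call was lost without wild type replicate 2. These genes are long, between 3615 and 4261 bases. Length-removed, cut3, smc5 and smc6 changed by 0.92, 0.94 and 0.72 and passed.

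DNA replication and DNA repair genes also rose more often than all probe sets. Of 53 replication genes 23 rose, 43.4% against 23.5% of all probe sets, and 3 fell, 5.66% against 9.84%. Their median change was 0.26, and 18 and 3 passed with the length trend removed. Of 55 genes for the DNA damage checkpoint and repair 27 rose, 49.1%, and 2 fell, 3.64%, with a median of 0.33, and 24 and 2 length-removed. With median centring 16 replication genes rose and 7 fell, and 19 repair genes rose and 3 fell. After quantile normalization the replication and repair medians were 0.16 and 0.13, against -0.01 for all probe sets. Without wild type replicate 2 the 2 lists had 9 and 9 rises and 0 and 0 falls.

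The catalytic subunit gene of DNA polymerase alpha, pol1, read 7.42 and 7.25 in wild type compared with 8.51 and 8.47 in fkh2-S2A. Its change was 1.16 ± 0.14, 2.23-fold (adjusted p = 0.00141, limma). The fork-protection gene swi1, at 7410 bases one of the longest named here, rose by 0.94 ± 0.13 and by 0.72 length-removed. Topoisomerase III (top3) was at or below background on the wild-type arrays, at 4.75 and 4.10, and read 5.29 and 5.56 in fkh2-S2A, so that its rise is stated as at least 1.06-fold (adjusted p = 0.00566, limma).

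Among repair genes, rad16, which encodes a subunit of a repair endonuclease, rose by 0.78 ± 0.12. The exonuclease gene exo1 rose by 0.70 ± 0.11 and the repair scaffold gene brc1 by 0.69 ± 0.10. For brc1 the signals were 7.81 and 7.93 in wild type, against 8.48 and 8.64 in fkh2-S2A, so the wild-type arrays were in the reverse order of most genes that rose.

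Targets of MBF, the factor that switches on transcription at the start of S phase, overlap with these lists. Of 21 such genes 6 rose, 28.6%, near the background of 23.5%, and 0 fell; without wild type replicate 2, 3 rose and 0 fell. The highest were psm3, pol1, the single-stranded DNA binding gene ssb1 (0.66 ± 0.11) and the replication checkpoint gene mrc1 (0.49 ± 0.11), whose call was lost without wild type replicate 2 and without fkh2-S2A replicate 2. Their median was 0.06, against 0.04 for all probe sets. It was -0.02 against -0.04 with median centring, and -0.15 against -0.01 with quantile normalization.

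Genes that modify or remodel chromatin also rose more often than background. Of 93 measured genes 41 rose, 44.1%, and 0 fell, with a median of 0.26. With median centring 32 rose and 5 fell, when 560 and 498 of all probe sets did. After quantile normalization the median was 0.15, against -0.01 for all. With the length trend removed 39 rose and 4 fell, and without wild type replicate 2 the counts were 16 and 0.

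The gene spt16 encodes a subunit of FACT, which moves nucleosomes out of the way of polymerases. It read 9.31 and 8.87 in wild type compared with 10.26 and 10.34 in fkh2-S2A, and rose by 1.21 ± 0.15 (adjusted p = 0.00141, limma). The fkh2-S2A arrays agreed closely here, while the wild-type arrays were further apart. The genes hrp1 and hrp3, for remodellers of the CHD family, rose by 1.15 ± 0.12 and 1.11 ± 0.14, and length-removed by 1.01 and 0.94.

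The remodeller gene fft2 rose by 0.95 ± 0.10, from 8.16 and 8.18 to 9.03 and 9.21. The gene spt6, for a histone chaperone that travels with RNA polymerase II, rose by 0.88 ± 0.11. In nht1, which encodes a subunit of a remodelling complex and is only 1186 bases long, the signal went from 7.13 and 7.02 to 8.09 and 7.97, a change of 0.96 ± 0.10 and of 1.03 length-removed (adjusted p = 0.0011 length-removed, limma).

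The transcription machinery moved less. Of 95 genes for RNA polymerases, Mediator and general factors 28 rose, 29.5%, and 5 fell, with 30 and 2 length-removed and 8 and 0 without wild type replicate 2. Examples that rose were the TFIID subunit gene taf1 (0.97 ± 0.11), the gene for the largest subunit of RNA polymerase III, rpc1 (0.93 ± 0.10), and the elongation factor gene spt5 (0.78 ± 0.12).

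Splicing genes rose in a share close to that of the chromatin genes although they are of ordinary length. Of 88 genes 39 rose, 44.3%, and 5 fell; their median length was 1854 bases against 1876 for all. The counts with the length trend removed were 39 and 3, and the median change was 0.26 as deposited and 0.24 length-removed. Without wild type replicate 2 they were 17 and 2.

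The gene sap145, for a component of the U2 particle that recognises branch points, read 8.51 and 8.30 in wild type, against 9.64 and 9.42 in fkh2-S2A. It rose by 1.13 ± 0.13, 2.19-fold (adjusted p = 0.00112, limma). The gene prp18, for a factor of the late catalytic step of splicing and a dim probe set, read 5.78 and 5.15 against 6.45 and 6.70 and rose by 1.11 ± 0.19. The spliceosome gene cwf11 rose by 1.11 ± 0.12, and brr2, for the helicase that unwinds U4 from U6, by 0.96 ± 0.11.

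Factors for mRNA export, 3′ end formation and decay were among those that rose. Of 51 genes 21 rose, 41.2%, and 2 fell, with 20 and 2 length-removed and 11 and 0 without wild type replicate 2. The gene tho2, for a subunit of the THO complex that couples transcription with export, read 8.52 and 8.41 against 9.76 and 9.69, a change of 1.26 ± 0.11 (adjusted p = 0.000743, limma). The decapping enzyme gene dcp2 rose by 0.99 ± 0.11, the CCR4-NOT subunit gene not3 by 0.97 ± 0.14 and the exonuclease gene exo2 by 0.95 ± 0.13.

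Genes that build ribosomes rose while genes for the ribosome itself did not pass the test in that direction. Of 55 ribosome biogenesis genes 25 rose, 45.5%, and 0 fell, with a median of 0.28. With median centring 22 rose and 1 fell. With the length trend removed 26 rose and 2 fell and the median was 0.33, and without wild type replicate 2 there were 14 rises and 0 falls. Of 121 cytosolic ribosomal protein genes 0 rose and 1 fell, rpp202 (-0.41 ± 0.10), a call that was lost length-removed. Without adjustment, a p below 0.05 was reached by 0 higher and 2 lower genes, and limma with a mean-variance trend found 1 and 11. The ribosomal protein genes have a median length of 671 bases, their median change was -0.05 as deposited and 0.11 length-removed, and they are the brightest list, at 14.14 to 14.21 on the 4 arrays.

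The gene nop12, whose budding yeast counterpart acts in 60S subunit maturation, read 10.56 and 10.21 in wild type compared with 11.40 and 11.45 in fkh2-S2A. It rose by 1.04 ± 0.12 (adjusted p = 0.00126, limma). The genes esf1 and nop14, for processing of 18S rRNA in budding yeast, rose by 0.97 ± 0.15 and 0.92 ± 0.10. The gene mak16, for 60S maturation in budding yeast and 1233 bases long, rose by 0.91 ± 0.13, and by 0.98 length-removed.

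Chaperonin and co-chaperone genes had the second highest share of rises as deposited. With median centring 11 of 26 rose and 1 fell. Of 26 genes 13 rose, 50.0%, and 0 fell, with a median of 0.37, and 14 and 0 length-removed; without wild type replicate 2, 3 rose. The co-chaperone gene sti1, whose product joins Hsp70 to Hsp90, read 11.46 and 11.04 in wild type, against 12.38 and 12.29 in fkh2-S2A and rose by 1.08 ± 0.14 (adjusted p = 0.00158, limma). The kinase co-chaperone gene cdc37 rose by 0.74 ± 0.12, and ero12, for an oxidase that helps form disulfide bonds in the endoplasmic reticulum, by 0.65 ± 0.12. The chaperonin subunit gene cct5 rose by 0.59 ± 0.11, and 4 more genes of that ring, cct2, cct4, cct6 and cct8, rose by 0.41 to 0.47; these 4 were named after their values were seen. The calls of all 5 were lost without wild type replicate 2.

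Translation factor and tRNA synthetase genes rose in a share below background, 7 of 45, 15.6%, and 0 fell; without wild type replicate 2, 3 rose. The glutaminyl-tRNA synthetase gene qrs1 was highest at 1.08 ± 0.11. The eIF4G gene tif471 rose by 0.98 ± 0.17, and gcn2, for the kinase that senses uncharged tRNA, by 0.92 ± 0.14. The gene tif225 rose by 0.42 ± 0.14, lost length-removed and without wild type replicate 2.

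Nuclear pore genes rose in 17 of 47 cases, 36.2%, and 1 fell; the counts were 17 and 5 length-removed and 7 and 0 without wild type replicate 2. The highest changes were in alm1 and nup211, which encode large proteins of the nuclear basket on the inner face of the pore. For alm1 the signals were 9.24 and 9.03 in wild type compared with 10.28 and 10.59 in fkh2-S2A, a change of 1.30 ± 0.14. For nup211 they were 8.19 and 8.07 against 9.32 and 9.41, a change of 1.23 ± 0.12 (adjusted p = 0.000891, limma). The genes are 5321 and 5701 bases long and passed length-removed, at 1.13 and 1.05. The gene pim1, for the exchange factor that loads the transport GTPase Ran, rose by 0.83 ± 0.20, a call lost without wild type replicate 2 and without fkh2-S2A replicate 2, and the nucleoporin gene nup61 rose by 0.78 ± 0.13.

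**Figure D3:**
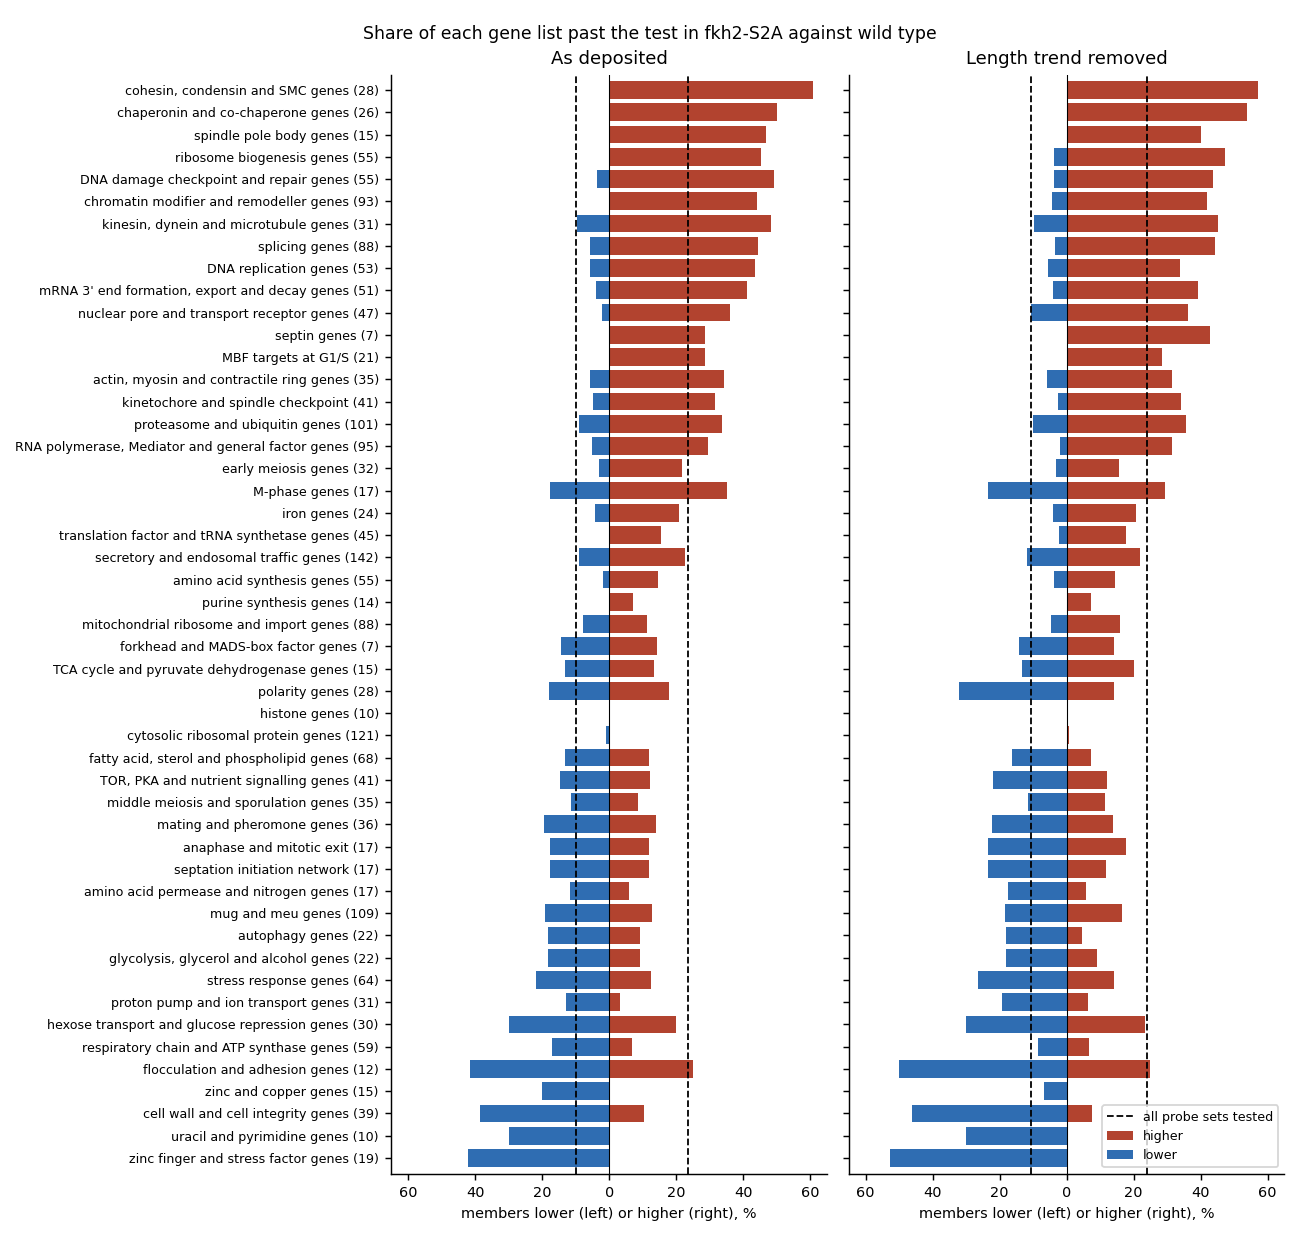
Share of the measured members (number in brackets) of each of 49 gene lists that passed the test as higher (red, right) or lower (blue, left) in fkh2-S2A, in percent, as deposited and with the length trend removed; dashed lines mark all probe sets tested, 23.5% and 9.84% on the left panel and 23.9% and 10.7% on the right. Cohesin, condensin and SMC genes stand at the top with 60.7% higher, and zinc finger and stress factor genes at the bottom with 42.1% lower.

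Spindle pole, kinetochore and motor genes were partly higher. Of 15 spindle pole body genes 7 rose, 46.7%, and 0 fell. Of 31 kinesin, dynein and microtubule genes 15 rose, 48.4%, and 3 fell, 9.68%. Of 41 kinetochore and spindle checkpoint genes 13 rose, 31.7%, and 2 fell, 4.88%. All probe sets stood at 23.5% and 9.84%. Without wild type replicate 2 the rises were 3, 4 and 2, and the falls 0, 0 and 0. The kinetochore median was 0.18 as deposited, against 0.04 for all probe sets. After quantile normalization it was -0.01, and that of all probe sets was also -0.01. The same normalization took the spindle pole body median from 0.40 to 0.07. It took that of the kinesin, dynein and microtubule genes from 0.30 to 0.18. With median centring 5 spindle pole body genes rose and 1 fell. How far these lists stood from all probe sets thus depended on the scaling.

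The gene spo15 encodes a coiled-coil protein of the spindle pole that is needed for spore formation. It read 9.27 and 9.02 in wild type, against 10.66 and 10.58 in fkh2-S2A and rose by 1.47 ± 0.15, 2.78-fold (adjusted p = 0.000972, limma). The pericentrin-like gene pcp1 rose by 0.97 ± 0.17. The genes cnp3, for the inner kinetochore protein CENP-C, and sim3, for a chaperone of the centromeric histone, rose by 1.16 ± 0.18 and 0.72 ± 0.13. The outer kinetochore gene nuf2 (0.60 ± 0.14) and the spindle pole gene cut12 (0.42 ± 0.13) rose too, and both calls were lost without wild type replicate 2 and after quantile normalization. The cut12 call was lost in 10 of the 18 other settings.

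Among motors, the kinesin-14 gene pkl1 read 7.59 and 7.32 against 8.53 and 8.56 and rose by 1.09 ± 0.16. The gene mto1, for a protein that anchors microtubule nucleation, rose by 0.81 ± 0.15. Alp1, a tubulin-folding cofactor, had a transcript change of 0.70 ± 0.10, from 8.89 and 8.96 to 9.65 and 9.58. The gene alp7, for a partner of the microtubule polymerase Alp14, changed by 0.71 ± 0.22, a call lost without wild type replicate 2 and without fkh2-S2A replicate 2.

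Myosin heavy chain genes rose and a light chain gene fell. The type V myosin genes myo52 and myo51, for cargo transport along actin, rose by 1.30 ± 0.14 and 0.97 ± 0.11, and the type II myosin genes myo2 and myp2, for the contractile ring, by 0.90 ± 0.14 and 0.76 ± 0.12. Their lengths are 4737 to 6444 bases, and length-removed the changes were 1.14, 0.82, 0.74 and 0.56, each past the test. The regulatory light chain gene rlc1, 1236 bases long, read 11.41 and 11.69 in wild type compared with 10.82 and 10.76 in fkh2-S2A and fell by 0.76 ± 0.11, or by 0.70 length-removed (adjusted p = 0.00263 as deposited, limma). The coronin gene crn1, for a protein of actin patches, rose by 0.87 ± 0.14, from 6.46 and 6.20 to 7.04 and 7.36. In the actin, myosin and contractile ring list 34.3% rose and 5.71% fell, against 23.5% and 9.84% of all probe sets. The whole list of 35 actin, myosin and contractile ring genes had 12 rises and 2 falls, and 7 and 2 without wild type replicate 2.

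Ubiquitin and proteasome genes numbered 101, of which 34 rose, 33.7%, and 9 fell; length-removed the counts were 36 and 10, and without wild type replicate 2 they were 11 and 1. The deubiquitinase genes ubp1, ubp5 and ubp12 rose by 1.12 ± 0.15, 1.00 ± 0.13 and 0.96 ± 0.13. The cullin gene cul1 rose by 0.93 ± 0.09, from 8.63 and 8.56 to 9.52 and 9.53.

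Membrane traffic genes were near background, with 32 of 142 higher, 22.5%, and 13 lower, 9.15%, and with 12 and 2 without wild type replicate 2. Their 4 largest changes were all rises: vps1302 (0.97 ± 0.11), the Arf exchange factor gene sec71 (0.97 ± 0.11), the retromer gene vps17 (0.96 ± 0.12) and the TRAPP subunit gene trs130 (0.96 ± 0.13). All 4 are at least 4552 bases long, and their length-removed changes were 0.72 to 0.82.

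Genes that respond to uracil were among the deepest falls. The gene urg2, which encodes a uracil phosphoribosyltransferase, read 10.16 and 10.38 in wild type, against 8.50 and 8.58 in fkh2-S2A. It fell by 1.73 ± 0.11, 3.32-fold (adjusted p = 0.000113, limma), and by 1.63 length-removed. For urg1, known for a promoter that is switched by uracil, the signals were 9.57 and 9.79 against 8.19 and 8.35, a fall of 1.41 ± 0.11.

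Between urg2 and urg1 in the annotation lies urg3, which fell by 0.43 ± 0.12 (adjusted p = 0.0232, limma), a call that was lost without wild type replicate 2 and without either fkh2-S2A array. The urg1 and urg2 calls remained under each of the 18 other settings. Of 10 measured genes of uracil and pyrimidine metabolism these 3 fell and 0 rose; without wild type replicate 2, urg1 and urg2 alone fell.

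Several stress and metal genes fell. The stress-responsive gene lsd90 read 9.32 and 9.54 in wild type compared with 7.55 and 8.06 in fkh2-S2A, a fall of 1.63 ± 0.17, 3.08-fold (adjusted p = 0.000972, limma). It fell by 1.66 length-removed, where urg2 fell by 1.63. The metallothionein gene zym1, 535 bases long, went from 9.42 and 9.31 to 8.19 and 8.33, a fall of 1.10 ± 0.10, and of 0.91 length-removed. In fkh2delta, zym1 read 11.31 and 11.39, above wild type, so the fkh2-S2A and fkh2delta arrays lay on opposite sides of wild type.

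Of 64 stress response genes 14 fell, 21.9%, and 8 rose, with 17 and 9 length-removed and 4 and 3 without wild type replicate 2. The glutathione transferase gene gst2 went the other way from lsd90: it read 9.29 and 9.10 against 10.58 and 10.31 and rose by 1.25 ± 0.13 (adjusted p = 0.000972, limma). The kinase gene wis4 of the stress MAP kinase cascade rose by 0.77 ± 0.15, lost without wild type replicate 2. Of 15 zinc and copper genes 3 fell, zym1, the vacuolar copper transporter gene ctr6 (-0.40 ± 0.12) and the copper chaperone gene cox17 (-0.35 ± 0.09). The last 2 calls were lost length-removed and without wild type replicate 2.

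Zinc-finger and stress transcription factors had the highest share of falls. Of 19 measured genes 8 fell, 42.1%, and 0 rose, against a background of 9.84%, with a median of -0.31; length-removed 10 fell, and without wild type replicate 2, when 40 of all probe sets were lower, 1 fell. These genes have a median length of 3160 bases, within the longest quintile of genes, in which 36.5% of all probe sets were higher and 10.3% lower.

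The gene scr1, for a repressor that acts in glucose-rich medium, read 10.01 and 10.41 in wild type, against 9.12 and 9.24 in fkh2-S2A. It fell by 1.03 ± 0.18 (adjusted p = 0.00407, limma), a call lost without wild type replicate 2. The zinc-finger gene rsv2 read 9.68 and 9.95 against 8.70 and 8.92, fell by 1.00 ± 0.13 and kept its call without any 1 array. The factors esc1, prz1, which acts downstream of calcineurin, and gaf1, a GATA factor, fell by 0.49 ± 0.13, 0.43 ± 0.13 and 0.43 ± 0.12, and each call was lost in more than 1 of the settings that left out an array.

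Cell wall and cell integrity genes fell more often than they rose. Of 39 genes 15 fell, 38.5%, and 4 rose, with a median of -0.26 as deposited and length-removed. With the length trend removed 18 fell and 3 rose; without wild type replicate 2 the counts were 3 and 1. The gene chs2, for a septum protein related to chitin synthases, read 9.74 and 9.92 in wild type compared with 8.87 and 9.18 in fkh2-S2A, a fall of 0.81 ± 0.12 (adjusted p = 0.00282, limma).

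The cell wall sensor gene wsc1 read 7.67 and 8.11 against 7.24 and 6.97 and fell by 0.79 ± 0.16, a call lost without wild type replicate 2. The glucan-modifying gene gas4, known for its part in the spore wall, was the exception among the largest changes, with a rise of 0.86 ± 0.12. Outside the list, the mannosyltransferase gene omh1, 4629 bases long, fell by 0.75 ± 0.10, and by 0.90 length-removed (adjusted p = 0.0021 as deposited, limma).

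**Figure D4:**
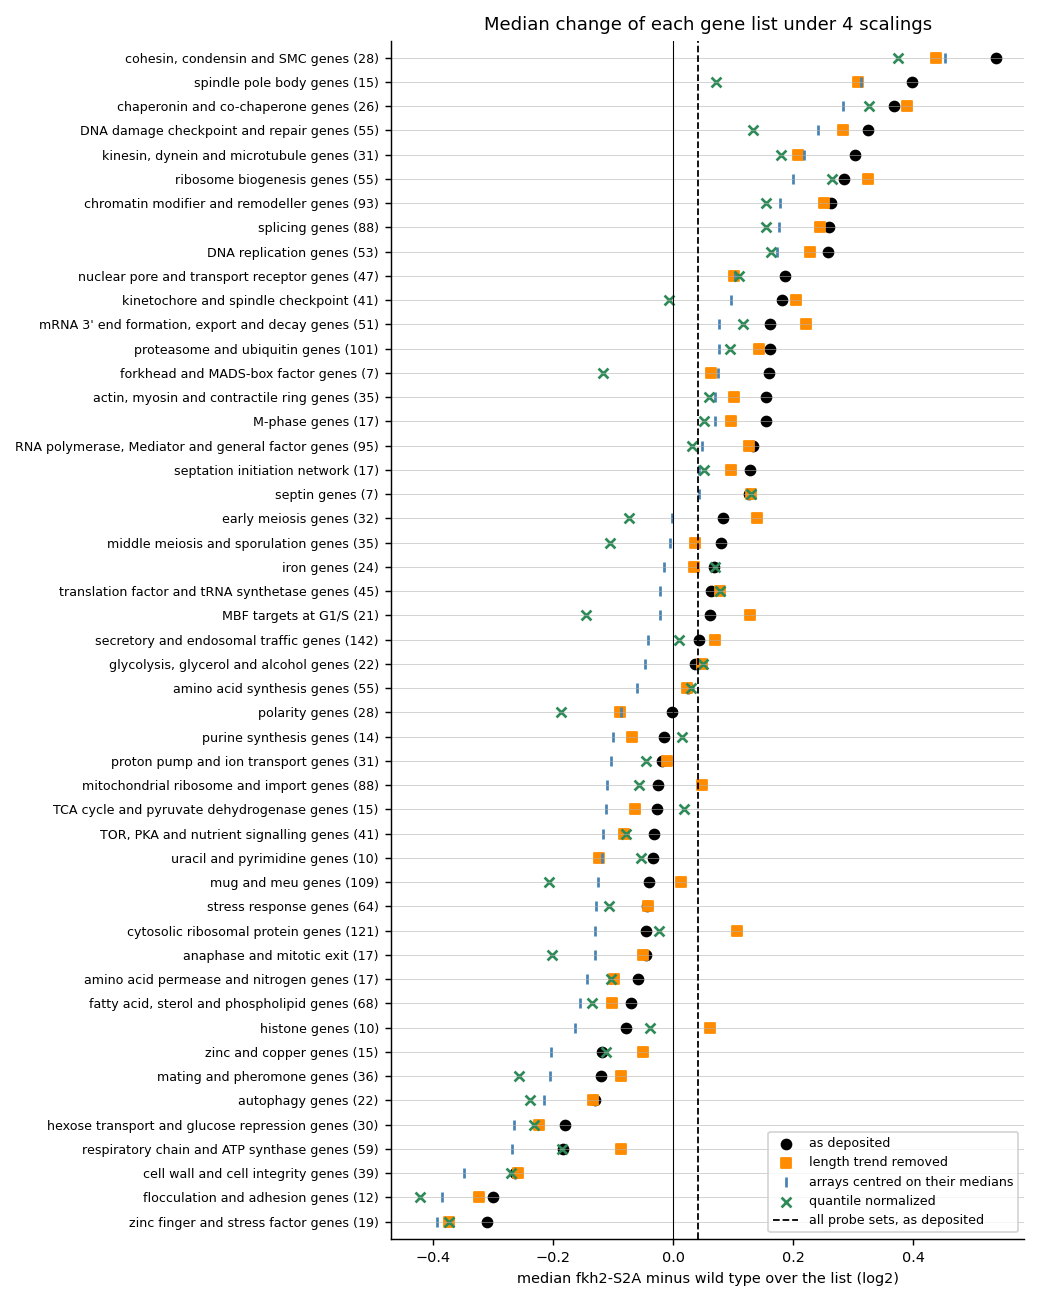
Median fkh2-S2A minus wild type change (x axis, log2) over the measured members (number in brackets) of each gene list as deposited (black circles), with the length trend removed (orange squares), with arrays centred on their medians (blue bars) and after quantile normalization (green crosses). Cohesin, condensin and SMC genes lie highest at 0.54 and zinc finger and stress factor genes lowest at -0.31 as deposited, and the dashed line is the median of all probe sets, 0.04.

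Genes of sugar use split. Of 30 genes for hexose transport and glucose repression 9 fell and 6 rose, and 9 and 7 length-removed; without wild type replicate 2, 2 fell and 3 rose. The invertase gene inv1 read 9.09 and 9.32 in wild type, against 8.23 and 8.30 in fkh2-S2A and fell by 0.94 ± 0.11 (adjusted p = 0.00112, limma). The galactose genes gal10 and gal1, which are neighbours, rose by 1.13 ± 0.15 and 0.99 ± 0.12. For gal1 the signals were 9.90 and 9.59 against 10.75 and 10.73. The gal10 probe set was dim, at 5.73 and 5.22 in wild type, with replicate 2 below background.

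In the glycerol branch, gut2, for the mitochondrial glycerol-3-phosphate dehydrogenase, fell by 0.91 ± 0.19 and gld1, for glycerol dehydrogenase, by 0.56 ± 0.16, and both calls were lost without wild type replicate 2. The dihydroxyacetone kinase gene dak2 rose by 0.96 ± 0.16 and the enolase gene eno102 by 0.91 ± 0.11. Of the 22 glycolysis, glycerol and alcohol genes 4 fell, 18.2%, and 2 rose, and 0 and 2 without wild type replicate 2.

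Genes of mitochondrial respiration were lower in small steps. Of 59 genes 10 fell, 16.9%, and 4 rose, with a median of -0.18. The genes are short, with a median length of 1185 bases; with the length trend removed 5 fell and 4 rose, the median was -0.09, and without wild type replicate 2 there were 0 falls and 1 rise. With median centring, as given above, 27 fell, so the number of falls depended on the scaling. The ATP synthase subunit gene atp18, 479 bases long, read 12.43 and 12.45 against 11.96 and 11.42 and fell by 0.74 ± 0.16, or by 0.53 length-removed, lost without wild type replicate 2. The assembly factor gene mss51 fell by 0.57 ± 0.13, the Rieske protein gene rip1 fell by 0.47 ± 0.10 and the ATP synthase assembly gene atp12 rose by 0.59 ± 0.14, all lost likewise. The mitochondrial protease gene lon1 moved the other way, from 9.74 and 9.37 to 10.85 and 10.89, a rise of 1.31 ± 0.13 (adjusted p = 0.000972, limma), and so did the import receptor gene tom70 (0.81 ± 0.12).

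The mitotic genes known as targets of the forkhead factors changed in both directions. Of 17 measured M-phase genes 6 rose, 35.3% against 23.5% of all probe sets, and 3 fell, 17.6% against 9.84%, with 5 and 4 length-removed; 1 rose and 1 fell without wild type replicate 2. The myosin gene myp2 was among those that rose. The chromosomal passenger gene bir1 read 8.06 and 7.72 against 8.42 and 8.69 and rose by 0.67 ± 0.14, and the F-BAR gene imp2 for the contractile ring rose by 0.47 ± 0.11. Both calls were lost without wild type replicate 2, and that of imp2 also without fkh2-S2A replicate 1. The septum gene chs2 of the same list fell.

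The other genes of this list are given to complete it, outside the rule for named genes. The anillin-like gene mid1 (0.44 ± 0.11), the chromosomal passenger gene pic1 (0.40 ± 0.12) and the kinesin gene klp8 (0.38 ± 0.10) rose, and the kinesin gene klp5 fell by 0.45 ± 0.15. These 4 calls were lost without wild type replicate 2, and the pic1 call also length-removed. The Polo kinase gene plo1 read 8.89 and 8.97 against 9.28 and 9.26, a change of 0.34 ± 0.12 that missed the threshold (adjusted p = 0.0523, limma). The kinesin gene klp6 (0.13 ± 0.10), the contractile ring gene cdc15 (0.15 ± 0.10), the Aurora kinase gene ark1 (-0.11 ± 0.13) and the APC activator gene slp1 (-0.05 ± 0.10) did not pass. The NIMA kinase gene fin1 (0.23 ± 0.11), the septation kinase gene sid2 (0.13 ± 0.10) and spo12 (-0.23 ± 0.11) did not pass either, and spo12 was called lower length-removed. The phosphatase gene cdc25, which triggers entry into mitosis, fell by 0.42 ± 0.14, a call lost without wild type replicate 2 and without fkh2-S2A replicate 1.

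The kinase gene wee1, which acts against cdc25 at that step, also fell. Its signal was 9.15 and 9.41 in wild type compared with 8.65 and 8.50 in fkh2-S2A. The fall was 0.70 ± 0.12, and 0.83 length-removed (adjusted p = 0.0022 length-removed, limma), and it kept its call without any 1 array.

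The septation initiation network, the signalling cascade that starts cytokinesis, had 2 rises and 3 falls among 17 genes, 11.8% and 17.6%, and 2 and 4 length-removed. Without wild type replicate 2 there were 1 rise and 1 fall. Byr4 and Cdc16 together form the GTPase-activating unit that holds this cascade off. Their transcripts changed in opposite directions: byr4 rose by 0.57 ± 0.10, from 8.33 and 8.34 to 8.92 and 8.89, and cdc16 fell by 0.84 ± 0.13, from 8.65 and 8.92 to 7.87 and 8.01 (adjusted p = 0.00353 and 0.00286, limma). Both calls remained in all 18 other settings. The scaffold gene sid4 rose by 0.68 ± 0.17 and the kinase-subunit gene mob1 fell by 0.49 ± 0.11, and these calls were lost without wild type replicate 2.

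Among 17 genes of anaphase and mitotic exit 2 rose and 3 fell, 11.8% and 17.6%, with 3 and 4 length-removed and 1 and 0 without wild type replicate 2. The subunit genes of the anaphase-promoting complex cut4 and cut9 rose by 0.65 ± 0.10 and 0.54 ± 0.14. The securin gene cut2 read 8.52 and 8.73 against 7.84 and 8.20 and fell by 0.61 ± 0.14. The B-type cyclin gene cig1 fell by 0.47 ± 0.09, while the cyclin gene cig2, one of the MBF targets above, was not called lower. The mitotic cyclin gene cdc13, named after its value was seen, fell by 0.41 ± 0.11. The cut9, cut2, cig1 and cdc13 calls were lost without wild type replicate 2, and the cut4 call remained. The cut9 call was also lost without either fkh2-S2A array, and the cut2 call without fkh2-S2A replicate 1.

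**Figure D5:**
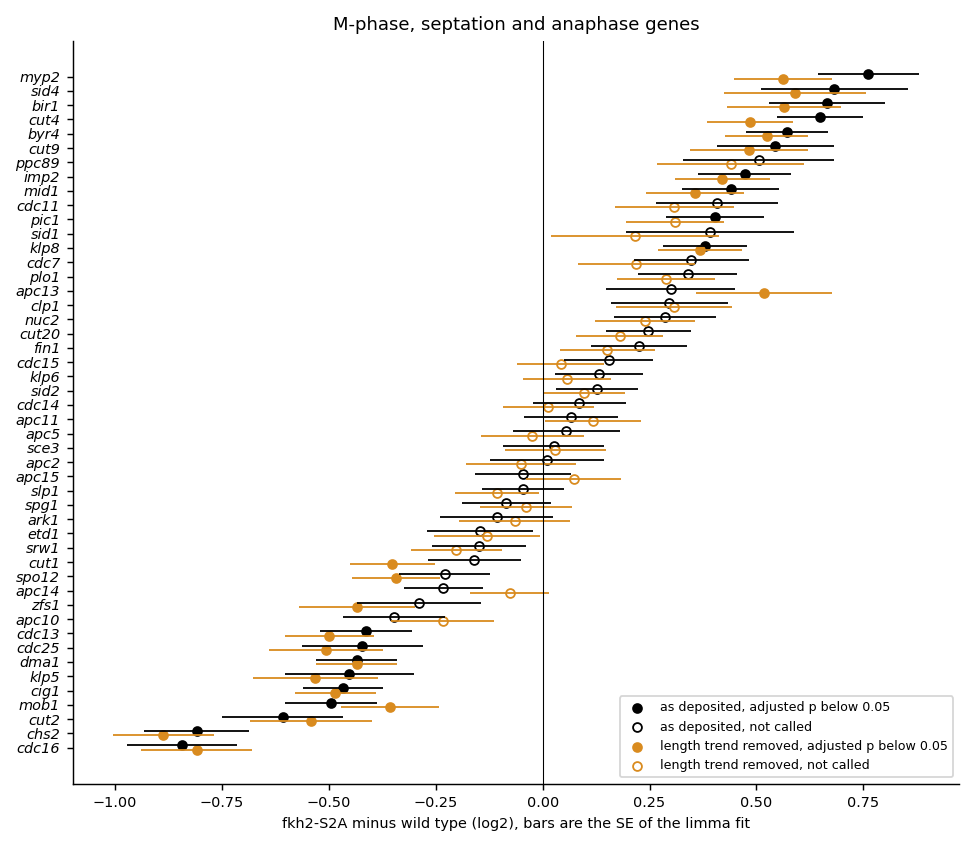
Fkh2-S2A minus wild type change (x axis, log2) of each measured M-phase, septation initiation and anaphase gene, with the SE of the limma fit as bars, as deposited (black) and with the length trend removed (orange); filled points passed the test. Points run from cdc16 (-0.84) and chs2 (-0.81) to myp2 (0.76), with most genes between them not called.

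The forkhead and MADS-box genes themselves are 7 in number, of which 1 rose and 1 fell, and 0 and 0 without wild type replicate 2. The forkhead gene sep1 read 10.43 and 10.60 in wild type, against 10.02 and 9.93 in fkh2-S2A and fell by 0.54 ± 0.10 (adjusted p = 0.00538, limma), a call lost without wild type replicate 2. The MADS-box gene mbx2, which acts in flocculation, rose by 0.58 ± 0.14, lost without either wild-type array and without fkh2-S2A replicate 2. The partner gene mbx1 (-0.33 ± 0.15), the meiotic forkhead gene mei4 (at least 1.07-fold lower, with fkh2-S2A at or below background; adjusted p = 0.125), fhl1 (0.22 ± 0.09) and the mating MADS-box gene map1 (0.16 ± 0.13) did not pass, nor did fkh2. For mei4, wild type replicate 1 was below background as well, at 5.22. For mbx1 and fhl1 the arrays did not overlap (9.75 and 10.04 against 9.41 and 9.71, and 8.11 and 8.03 against 8.29 and 8.29), in common with 67.1% of all probe sets.

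Adhesion genes were few. Of 12 genes for flocculation and adhesion 5 fell, 41.7%, and 3 rose, 25.0%, and without wild type replicate 2 the counts were 0 and 1. The adhesion regulator gene adn2 rose by 0.92 ± 0.09, from 8.04 and 8.08 to 8.95 and 9.00, while adn1, listed as ldb1, fell by 0.65 ± 0.14. The cell agglutinin gene mam3 fell by 0.57 ± 0.14, and these 2 falls were lost without wild type replicate 2.

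Meiosis genes showed no shared direction. Of 32 early meiosis genes 7 rose, 21.9%, and 1 fell, 3.12%, and of 35 genes for middle meiosis and sporulation 3 rose, 8.57%, and 4 fell, 11.4%. Of 109 genes named mug or meu, for their induction in meiosis, 14 rose, 12.8%, and 21 fell, 19.3%. All probe sets stood at 23.5% and 9.84%. Without wild type replicate 2 the rises in the 3 lists were 2, 3 and 6 and the falls 0, 0 and 2. The early and middle medians were 0.08 and 0.08, against 0.04 for all probe sets. With median centring they were -0.0018 and -0.0057, against -0.04 for all. With quantile normalization they were -0.07 and -0.11, against -0.01 for all. Most of these genes were dim: the early list had medians of 5.19 and 5.16 in wild type, near background.

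The gene mcp4, 1068 bases long, read 6.07 and 5.89 in wild type compared with 6.87 and 6.98 in fkh2-S2A and rose by 0.94 ± 0.11 (adjusted p = 0.00112, limma). The linear element gene rec10, for recombination, rose by 0.70 ± 0.12, and mei2, for the RNA-binding protein that drives entry into meiosis, by 0.71 ± 0.12. The gene mes1, which restrains the anaphase-promoting complex between the meiotic divisions, fell by 0.70 ± 0.13, lost without wild type replicate 2. The monopolin gene mde4 rose by 0.73 ± 0.11, and num1, for a cortical anchor of dynein, rose by 0.60 ± 0.12, lost without wild type replicate 2. The early gene meu1 was at or below background in wild type and is stated as at least 1.03-fold higher (adjusted p = 0.0131, limma), also lost. Among the mug and meu genes 21 fell and 14 rose, and 28 and 12 with median centring, but the largest called changes were rises. Besides meu1, they were mug184, mug147 and meu18, which rose by 0.99 ± 0.14, 0.82 ± 0.11 and 0.73 ± 0.11. For mug184 wild type was near background, at 5.36 and 5.33, with replicate 2 below it.

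Mating genes moved both ways too. Of 36 genes 5 rose, 13.9%, such as ste4 (0.73 ± 0.12) and rgs1 (0.66 ± 0.11), and 7 fell, 19.4%, such as ste7 (-0.62 ± 0.15), whose call was lost without wild type replicate 2. Without that array the counts were 3 and 1.

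Iron genes, str3 among them, rose in a share below that of all probe sets. Of 24 genes 5 rose, 20.8%, and 1 fell, 4.17%, and 5 and 0 without wild type replicate 2. The vacuolar transporter gene abc3 rose by 0.83 ± 0.14, from 9.72 and 9.72 to 10.76 and 10.34. The cysteine desulfurase gene nfs1, for iron-sulfur clusters, rose by 0.78 ± 0.14. The ferroxidase gene fio1 rose by 0.80 ± 0.20, a call lost without wild type replicate 1 and without fkh2-S2A replicate 1.

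In amino acid and nucleotide synthesis most genes did not pass. Of 55 amino acid synthesis genes 8 rose, 14.5%, and 1 fell, below the background for rises, and 2 and 0 without wild type replicate 2. The serine hydroxymethyltransferase gene shm2 rose by 0.88 ± 0.11, and ade9, which like shm2 serves one-carbon metabolism, by 0.94 ± 0.13; ade9 was the only call among 14 purine genes. The glutamate dehydrogenase gene gdh2 rose by 0.62 ± 0.09, from 8.62 and 8.60 to 9.23 and 9.22. The genes trp1 and met11, for steps of tryptophan and methionine synthesis, rose by 0.55 ± 0.10 and 0.53 ± 0.11, and both calls were lost without wild type replicate 2.

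Signalling and transport genes gave a few falls of moderate size. The nutrient-responsive kinase gene sck2 fell by 0.58 ± 0.10 and kept its call without any 1 array, and the glucose receptor gene git3 fell by 0.57 ± 0.14, lost without wild type replicate 2. The calcium channel subunit gene yam8 fell by 0.68 ± 0.10, from 11.70 and 11.84 to 11.11 and 11.06. The genes scw1 and nrd1, both for RNA-binding proteins, fell by 0.78 ± 0.12 and 0.77 ± 0.14, the second lost without wild type replicate 2. Of 41 genes for TOR, PKA and nutrient signalling 6 fell, 14.6%, and 5 rose, 12.2%, and 1 and 0 without wild type replicate 2. The TORC1 subunit gene tco89 and the phosphatase subunit gene par2 rose by 0.52 ± 0.10 and 0.52 ± 0.11, both lost without that array. The gene gti1 fell by 0.73 ± 0.13, pit1 fell by 0.80 ± 0.16 and sgt1 rose by 1.16 ± 0.13, and these 3 calls remained under all 18 other settings.

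Histone genes did not pass: of 10 measured genes 0 were called by limma as deposited or length-removed, 1 was lower at p below 0.05 without adjustment, and limma with a mean-variance trend found 0. Their median change was -0.08 as deposited and 0.06 length-removed, and they are short, with a median length of 828 bases. With median centring 1 was called lower.

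Probe sets that match several genes gave 2 further rises of at least 2-fold, named after their values were seen. The probe set shared by 11 Tf2 retrotransposons read 9.80 and 9.76 in wild type, against 10.97 and 10.71 in fkh2-S2A, a change of 1.06 ± 0.16 (adjusted p = 0.00286, limma). The copies cannot be told apart by this probe set. The probe set shared by cox1101 and cox1102, for a copper chaperone of cytochrome oxidase fused to a mitochondrial ribosomal protein, changed by 1.07 ± 0.11.

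The genes next to those that changed at least 2-fold were looked up in the annotation. The 40 single genes gave 48 pairs with a measured neighbour, and the neighbour was called in 15 pairs, 31.2%, close to the 33.3% of all probe sets. In 12 of the 15 pairs the neighbour moved in the same direction. Of the 40 genes 34 were higher, as were 689 of all 978 called probe sets. Besides the urg and gal genes these included psm3 with nht1, qrs1 with gas4, and bud6, for an actin-nucleation cofactor, with the shugoshin gene sgo2 (1.09 ± 0.14 and 0.71 ± 0.14), the latter lost without wild type replicate 2.

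The fkh2delta arrays are compared with the same wild-type arrays, so the 2 comparisons share their controls, and values are set side by side without a test. For the 5 highest rises in fkh2-S2A, aes1, str3, top2, spo15 and lon1, the changes against wild type were 2.13, 1.84, 1.62, 1.47 and 1.31 in fkh2-S2A and -1.01, 2.86, 1.24, 1.22 and 0.63 in fkh2delta. In aes1 the fkh2delta arrays lay below wild type, and in the other 4 genes they lay above it. For the 5 deepest falls, urg2, lsd90, urg1, zym1 and scr1, the changes were -1.73, -1.63, -1.41, -1.10 and -1.03 in fkh2-S2A and -0.10, -0.31, -0.30, 1.98 and -0.94 in fkh2delta.

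The following genes were chosen for this side-by-side after their values were seen. The septum gene chs2 read 10.83 and 10.85 in fkh2delta, above wild type, whereas it was below wild type in fkh2-S2A. The cell cycle gene cdc16 read 7.58 and 7.33 in fkh2delta, below fkh2-S2A, and wee1 8.32 and 8.34, also below it. For pol1 the fkh2delta arrays read 9.16 and 9.58, above fkh2-S2A.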

How the data were processed

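Per the labels, total RNA was biotin-labelled and hybridised to Affymetrix yeast arrays. The authors deposited 1 log2 value per probe set and array. That the base is 2 was judged from the size of the values. The summary method, software and genome build were not given in the sources. The 25th percentiles lay between 8.77 and 9.07 on the 6 arrays, and the values were used as deposited. Precision is limited by the number of arrays, 2 a group.

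Probe sets were named through the platform annotation and RefSeq ASM294v3, used for names, gene order and length only (3 matched by symbol alone). The probe set with the highest mean stood for each of 14 genes with several. A group was at background where both arrays were at or below the 95th percentile over 2601 listed probe sets with no gene of S. pombe; its fold was then given as a bound.

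A linear model with group as its term was fitted to the 6 arrays with limma 3.58.1 (R 4.3.3). Moderated two-sided statistics had 3 residual and 5.74 prior degrees of freedom. P-values were adjusted by Benjamini-Hochberg over 2936 probe sets and called below 0.05. The second fit removed, per array, the least-squares line of its deviation from the gene mean on log2 gene length, for 2917 probe sets. The steps were tested on simulated data.

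The comparison and the 49 gene lists (1992 genes in at least 1) were chosen with earlier results of these data known; 15 list entries were left out because a synonym led to another gene or the role was unsure. A list is described by its counts and median, with no test. Named genes are fkh2, the forkhead and MADS-box genes, per fit the 15 highest rises and 15 deepest falls with non-overlapping arrays and a group above background, 4 and 4 per tercile of gene length, and up to 4 called members of each list. Of the genes this rule names, 3 are not reported here.

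Samples sharing a replicate number did not deviate in the same direction. The correlation of deviations was -0.0854 between wild type and fkh2-S2A, -0.179 between wild type and fkh2delta and -0.274 between fkh2delta and fkh2-S2A. The number was used as a block only in an alternative.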

Additional observations from a re-analysis of the deposited data

How the results depend on the processing

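As deposited, 689 probe sets were higher, 289 lower, 36 at least 2-fold higher and 6 at least 2-fold lower. Median centring gave 498 lower, trimmed-mean centring 513 lower, and quantile normalization 442 higher and 14 at least 2-fold higher. Removal of the length line with median centring after it gave 16 at least 2-fold higher. Leaving out 1 array gave 247 to 656 higher, 40 to 265 lower and 20 to 76 at least 2-fold higher; with the length line removed the ranges were 215 to 667 higher, 55 to 310 lower, 11 to 58 at least 2-fold higher and 3 to 10 at least 2-fold lower, with 177 lower without fkh2-S2A replicate 1. The lowest counts of higher and lower calls came without wild type replicate 2, and the cause was not tested. The replicate block gave 604 higher and 232 lower, and 546 and 243 with the length line removed. Other filters, priors, array weights, a fit on 4 arrays and a lowess curve in place of the line kept the counts within 1.5 times. Of 178 named genes that were called, 114 kept the call and the direction under all 18 other settings, 63 lost it without wild type replicate 2, 5 with the length line removed, and 0 turned direction. Length-removed leave-one-out fits and the re-centred removal were chosen after seeing the data. Coding or protein length in place of gene span was not run. Signals near background limit what can be said of dim genes such as top3 and mei4.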

Other observations

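A few called groups fall outside the functions described above. All probe sets stood at 23.5% higher and 9.84% lower. Mitochondrial ribosome and import genes stood at 11.4% and 7.95%, lipid genes at 11.8% and 13.2% and polarity genes at 17.9% and 17.9%. Of 88 genes for mitochondrial ribosomes and import 10 were higher and 7 lower in fkh2-S2A, and 4 and 0 without wild type replicate 2. The processing peptidase gene mas2 and the import gene tim50 rose by 0.65 ± 0.10 and 0.60 ± 0.12, the latter lost without that array. Of 22 autophagy genes 2 were higher, 9.09%, and 4 lower, 18.2%. With wild type replicate 2 left out, 0 were higher and 1 was lower. The genes atg7 (0.45 ± 0.13), atg1801 (-0.44 ± 0.12) and atg8 (-0.39 ± 0.13) were called but lost that call without it. These calls were also lost without fkh2-S2A replicate 2. Those of atg1801 and atg8 were lost without wild type replicate 1 too, and that of atg8 also length-removed. The autophagy gene atg22 fell by 0.57 ± 0.10, from 9.91 and 10.09 to 9.45 and 9.40, and kept its call without any 1 array. Of 68 genes for fatty acids, sterols and phospholipids 8 were higher and 9 lower, and 1 of each stayed called without that array. Calls lost there were those of the sterol regulator gene dsc1 (-0.55 ± 0.14) and the mevalonate kinase gene erg12 (0.50 ± 0.14). There plh1, for an enzyme that makes storage lipid, rose by 0.68 ± 0.11, and gpi15, for an early step of GPI anchor synthesis, fell by 0.51 ± 0.09. Of 28 polarity genes 5 were higher and 5 lower, with 4 and 9 with the length trend removed and 2 and 0 without wild type replicate 2; the landmark gene tea3 rose by 0.68 ± 0.11.

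Septins form a ring at the division site. Of 7 septin genes 2 were higher, 28.6%, near the 23.5% of all probe sets, and 0 were lower. The 2 were spn4 (0.68 ± 0.13) and spn1 (0.49 ± 0.13), and both calls were lost without wild type replicate 2. Of 15 genes of the TCA cycle and pyruvate dehydrogenase 2 were higher and 2 lower, and 1 and 0 without that array. As deposited, 13.3% of this list was higher and 13.3% lower, against 23.5% and 9.84% of all probe sets. The pyruvate dehydrogenase subunit gene pdx1 rose by 0.82 ± 0.14, from 10.31 and 10.01 to 11.08 and 10.89, and the fumarase gene fum1 fell by 0.52 ± 0.11. Smaller changes were those of the isocitrate dehydrogenase gene idp1 (0.36 ± 0.09) and of osm1 (-0.33 ± 0.10). Of 17 genes for amino acid permeases and nitrogen use 1 was higher, 5.88%, and 2 lower, 11.8%. Of 31 genes for proton pumps and ion transport 1 was higher, 3.23%, and 4 lower, 12.9%. These counts were 1 and 0, and 0 and 1, when wild type replicate 2 was left out. The permease gene isp5 rose by 0.52 ± 0.14 and uga1, for GABA use, fell by 0.45 ± 0.13. The calcineurin gene ppb1 rose by 0.46 ± 0.11 and the cation pump gene cta3 fell by 0.39 ± 0.11. Of the calls in this paragraph only that of pdx1, among the genes named, remained in all 18 other settings.

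The length trend differed with the signal. Within the dimmest quintile of probe sets by mean signal the median change went from 0.02 in the shortest quintile of genes to 0.34 in the longest, within the next quintile from -0.11 to 0.25, and within the brightest quintile from -0.07 to 0.01. The brightest quintile held 257 of the shortest genes and 35 of the longest.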
